A study of Homo sapiens with 9 samples.

Results

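The genes described here are 39 interferon-stimulated genes, and the question asked of them was whether transfection of a small interfering RNA (siRNA) raised their transcripts. All probe sets annotated with exactly 1 gene symbol that is on the list were taken, and where a gene had several, the one brightest on average over the 9 arrays stood for it and the rest served as a check. This gave 38 genes of 11963 in all, and STAT2 is not analysed here. The cells were U251 (U251MG), an established human glioma line, and received 100 nM of an siRNA against WT1, 100 nM of a scrambled non-targeting siRNA, or the transfection reagent Oligofectamine with no siRNA. Oligofectamine was thus common to all 3 groups, and the study has no group of cells left without it. Each group had 3 arrays, which the labels describe as biological triplicates, and the groups shared the replicate numbers 1 to 3. The labels used here do not state the time between transfection and harvest.

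Interferons are secreted proteins that cells release when sensors such as RIG-I, MDA5 (the product of IFIH1) and Toll-like receptors meet foreign nucleic acid, double-stranded RNA among it. They act through receptors and JAK kinases on transcription factors, IRF9 among them, that bind the interferon-stimulated response element (ISRE) in front of their target genes. The products of these genes block viral entry, translation and replication, process antigens, or feed back on the pathway, and some siRNAs and transfection reagents are known to switch the genes on in cultured cells.

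The promoters of 6 members are shown because their genes carry the results below: IFIT1 and ISG15 are the members most often used as readouts of interferon, and IFI44, IFI44L, ISG20 and PARP12 had among the smallest p-values against reagent. The sequences are from RefSeq (GRCh38.p14), 250 bases before the start of the gene, read 5′ to 3′ on the strand of the gene. Capitals mark the ISRE core searched for, which is GAAA, any 2 bases and GAAA, or on the other strand TTTC, any 2 bases and TTTC. Overlap with another motif was not excluded. They lie at chr10:89392373-89392622 (IFIT1, + strand), chr1:1013247-1013496 (ISG15, + strand), chr1:78649539-78649788 (IFI44, + strand), chr1:78620198-78620447 (IFI44L, + strand), chr15:88638766-88639015 (ISG20, + strand) and chr7:140062952-140063201 (PARP12, − strand).
IFIT1: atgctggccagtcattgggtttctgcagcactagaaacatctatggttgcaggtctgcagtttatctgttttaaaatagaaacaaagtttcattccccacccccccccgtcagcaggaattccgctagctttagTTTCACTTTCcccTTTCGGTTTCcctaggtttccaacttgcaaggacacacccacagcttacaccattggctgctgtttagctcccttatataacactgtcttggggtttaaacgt
ISG15: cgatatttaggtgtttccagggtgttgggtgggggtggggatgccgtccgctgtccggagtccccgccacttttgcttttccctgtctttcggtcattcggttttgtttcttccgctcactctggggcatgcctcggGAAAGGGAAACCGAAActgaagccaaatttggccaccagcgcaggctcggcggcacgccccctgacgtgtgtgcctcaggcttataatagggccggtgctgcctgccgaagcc
IFI44: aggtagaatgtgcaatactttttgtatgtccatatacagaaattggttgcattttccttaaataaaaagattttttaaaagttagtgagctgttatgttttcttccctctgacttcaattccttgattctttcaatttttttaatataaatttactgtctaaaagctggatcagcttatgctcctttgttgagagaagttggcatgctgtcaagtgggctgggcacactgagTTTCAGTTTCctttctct
IFI44L: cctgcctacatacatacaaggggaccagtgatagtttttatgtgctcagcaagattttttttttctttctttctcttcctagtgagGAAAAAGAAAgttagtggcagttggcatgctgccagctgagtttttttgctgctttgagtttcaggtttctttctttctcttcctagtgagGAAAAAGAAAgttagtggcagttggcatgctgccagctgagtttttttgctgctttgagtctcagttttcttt
ISG20: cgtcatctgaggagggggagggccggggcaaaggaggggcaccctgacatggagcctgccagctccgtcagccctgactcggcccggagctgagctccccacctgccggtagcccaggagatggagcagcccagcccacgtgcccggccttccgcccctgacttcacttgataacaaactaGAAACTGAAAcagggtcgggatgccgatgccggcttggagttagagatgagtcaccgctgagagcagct
PARP12: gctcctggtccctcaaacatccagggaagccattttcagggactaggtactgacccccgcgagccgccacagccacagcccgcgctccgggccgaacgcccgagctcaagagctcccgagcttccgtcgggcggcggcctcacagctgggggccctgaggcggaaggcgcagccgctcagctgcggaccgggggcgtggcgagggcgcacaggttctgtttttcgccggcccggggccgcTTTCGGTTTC
IFIT1 had 2 cores, whose first bases lay at −116 and −103 from the start, and ISG15 had 2 that overlap. IFI44L had 2 cores of the same letters, at −164 and −73. IFI44, ISG20 and PARP12 had 1 core each, at −18, −69 and −10.

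Of the 38 members, 31 had an entry in the promoter table, and 20 of these (64.5%) held an ISRE core within 250 bases before and 50 bases after the start. Of all 27305 promoters of that length, 3.65% held one. A match is a run of letters and not a measured binding site. In the comparison of both siRNAs with reagent described below, the median change was 0.04 over the 20 members with an ISRE core (13 above 0) and 0.01 over the 11 without (6 above 0). With scrambled siRNA against reagent the medians were −0.04 and 0.02, in the opposite order. These are descriptions with no test.

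The siRNA lowered its target. On the log2 scale WT1, a zinc finger transcription factor, was at 6.05, 6.58 and 5.89 with reagent alone, at 5.59, 5.89 and 5.41 with scrambled siRNA and at 4.76, 5.09 and 4.82 with the WT1 siRNA, in the order of the replicate numbers. The WT1 siRNA arrays lay below all others, and WT1 fell by 1.29 against reagent (SE 0.0811, limma adjusted p = 0.000619) and by 0.55 with scrambled siRNA against reagent (adjusted p = 0.0164). The difference between WT1 and scrambled siRNA was −0.74 and was also called. Array medians were 6.45 to 6.53. The glial markers VIM (13.57 to 13.71) and CD44 (12.85 to 13.25) were high on every array, whereas GFAP ranged from 5.36 to 9.25, and 13 of 16 immune cell markers were measured, with an array mean of 5.16 to 5.39. Arrays with the same replicate number deviated from their group means together, with correlations of 0.647 to 0.849 over all probe sets and 0.356 to 0.803 over the members, so every comparison was made within replicate numbers (a blocked fit in limma). Changes below are log2 differences with the standard error (SE) of that fit and n = 3 arrays per group. A change was called at a Benjamini-Hochberg adjusted p under 0.05 over all probe sets. The p-values set a change against the spread left once groups and replicate numbers are fitted. That is how far differences between treatments vary from number to number, not how far the levels of the numbers lie apart. For arrays, their number limits the precision.

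By its brightest probe set, no interferon-stimulated gene passed the test with either siRNA. Against reagent, limma called 0 of 38 members with the WT1 siRNA (1.4% of all genes were called), 0 of 38 with the scrambled siRNA (1.21% of all genes) and 0 of 38 for the mean of both (0.61% of all genes). It also called 0 of 38 between the 2 siRNAs, where 3.7% of all genes were called. At an unadjusted p under 0.05 there were 6, 7, 8 and 9 members in these comparisons, in the same order, or 15.8%, 18.4%, 21.1% and 23.7%, and 15.9%, 13.1%, 14.1% and 17.7% of all genes. In all 4 comparisons the 95% interval of each of the 38 members lay below a 2-fold rise, as it did for 99.9% of all genes with the WT1 siRNA, 99.8% with scrambled siRNA, 99.9% between the siRNAs and 100% for both siRNAs. The highest upper limits against reagent were those of TRIM22 with the WT1 siRNA (0.65, or 1.57-fold) and of IFI44L with scrambled siRNA (0.68, or 1.60-fold). The comparisons with reagent share the reagent arrays, and those with scrambled siRNA share the scrambled arrays.

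**Figure D1:**
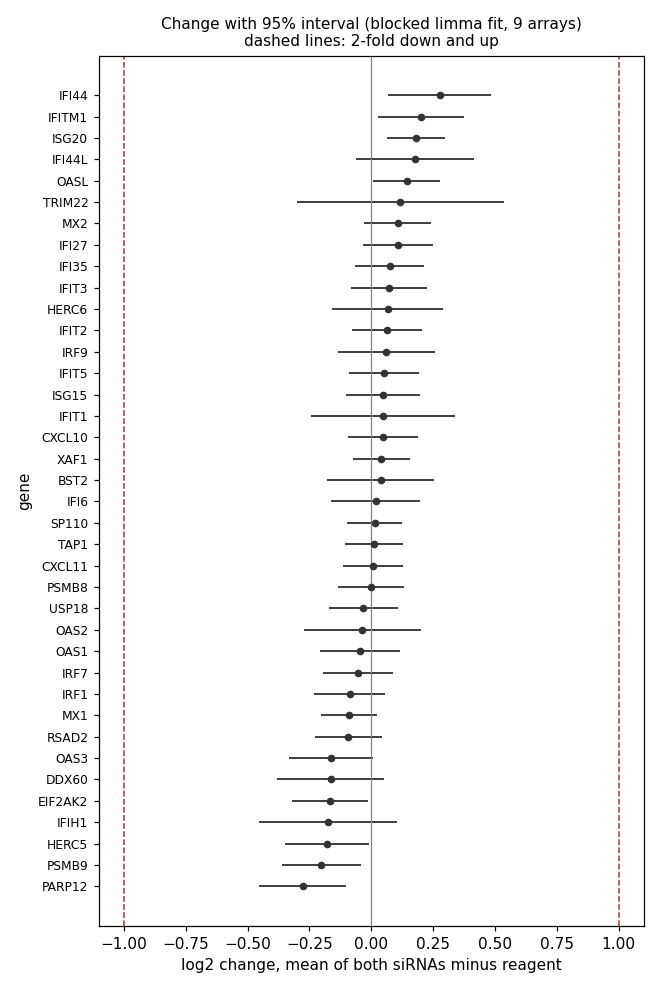
Change of each of the 38 interferon-stimulated genes, mean of both siRNAs minus reagent (x axis, log2), with bars for the 95% interval of the blocked limma fit over 9 arrays. Dashed lines mark a 2-fold change, and the intervals of all 38 genes lie between them, the highest upper limit being 0.54 (TRIM22).

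The median change of the members was −0.03 with the WT1 siRNA against reagent (0.01 over all genes), 0.03 with scrambled siRNA against reagent (0.01 over all genes) and −0.05 between WT1 and scrambled siRNA (−0.00 over all genes). Above 0 were 18, 22 and 13 of the 38, and 53.9%, 55.7% and 49.4% of all genes. By role, the 16 antiviral effectors had a median of 0.05 for the mean of both siRNAs against reagent, the 4 genes of the ubiquitin-like modifier system 0.01, the 4 regulators of transcription −0.02, the 3 genes of antigen processing −0.00, the 2 chemokines 0.03 and the 7 other induced genes 0.07. The 2 RNA sensors or helicases, IFIH1 and DDX60, stood at −0.17, and neither was called. With the WT1 siRNA alone those 2 genes stood at −0.21, and the antiviral effectors at 0.10.

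The members usually read as the first signs of an interferon response are given array by array, each in the order of the replicate numbers. IFIT1, which binds foreign RNA ends and blocks their translation, was at 7.02, 6.94 and 7.28 with reagent, at 7.02, 6.90 and 7.02 with scrambled siRNA and at 7.73, 7.12 and 6.98 with the WT1 siRNA. The WT1 siRNA array of number 1 was the highest, and the groups otherwise overlapped. The change with the WT1 siRNA was 0.20 (95% interval −0.14 to 0.53, limma adjusted p = 0.589).

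IFIT3, the partner of IFIT1 in its complex, was at 6.73, 6.98 and 7.01 with reagent, at 6.86, 6.97 and 6.93 with scrambled siRNA and at 7.08, 7.10 and 6.93 with the WT1 siRNA. All 3 groups overlapped, with a change of 0.07 for both siRNAs (95% interval −0.08 to 0.22). ISG15, the ubiquitin-like protein that is attached to other proteins after interferon, was at 7.58, 7.57 and 8.15 with reagent, at 7.86, 7.66 and 8.35 with scrambled siRNA and at 7.72, 7.35 and 7.96 with the WT1 siRNA. In each group number 3 was the highest, and within every number the scrambled array stood above the other 2. The difference between WT1 and scrambled siRNA was −0.28 (SE 0.0769, limma adjusted p = 0.0929) and lay below 0 in 3 of 3 numbers.

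MX1, a dynamin-like GTPase that blocks influenza and other viruses, was at 5.51, 5.50 and 5.56 with reagent, at 5.43, 5.49 and 5.48 with scrambled siRNA and at 5.39, 5.46 and 5.37 with the WT1 siRNA. The 3 reagent arrays were the highest of the 9, by a small margin, and the change of both siRNAs was −0.09 (95% interval −0.20 to 0.02, limma adjusted p = 0.51). OAS1, which makes the messenger that activates RNase L, was at 5.27, 5.08 and 5.25 with reagent, at 5.21, 5.08 and 5.17 with scrambled siRNA and at 5.35, 5.17 and 4.95 with the WT1 siRNA. Its groups overlapped, with a change of −0.04 for both siRNAs (95% interval −0.21 to 0.12).

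CXCL10, a chemokine that draws T cells, was at 5.10, 5.02 and 4.76 with reagent, at 5.09, 5.00 and 5.00 with scrambled siRNA and at 5.19, 4.92 and 4.83 with the WT1 siRNA. BST2 (tetherin), which holds budding virus at the cell surface, was at 6.81, 6.35 and 6.81 with reagent, at 7.06, 6.28 and 6.43 with scrambled siRNA and at 7.26, 6.54 and 6.61 with the WT1 siRNA. Both genes overlapped between all groups, and their changes with both siRNAs were 0.05 (95% interval −0.10 to 0.19) and 0.04 (95% interval −0.18 to 0.26).

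**Figure D2:**
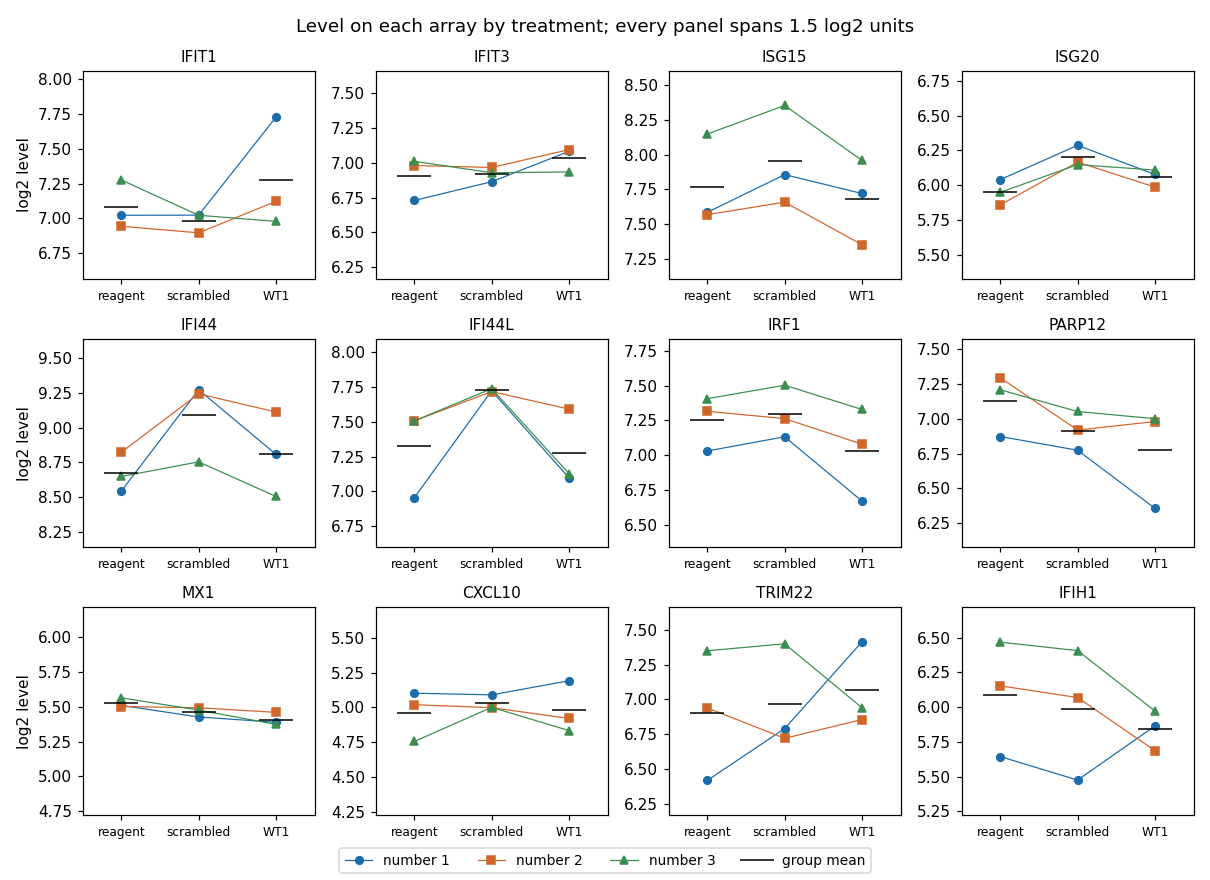
Log2 level (y axis) of 12 interferon-stimulated genes on each array by treatment (x axis), with lines joining arrays of the same replicate number and bars for the group means. Every panel spans 1.5 log2 units, and for ISG15 all 3 lines peak at scrambled siRNA, while for TRIM22 and IFIT1 the WT1 siRNA array of number 1 stands above the rest of its group.

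With scrambled siRNA the members with the smallest p were ISG20, IFI44 and IFI44L, none of which passed the adjustment. ISG20, an exonuclease that degrades viral RNA, was at 6.04, 5.86 and 5.95 with reagent, at 6.29, 6.17 and 6.15 with scrambled siRNA and at 6.08, 5.99 and 6.11 with the WT1 siRNA. The scrambled arrays lay above all others. Their difference from reagent was 0.25 (SE 0.0602, limma adjusted p = 0.0954).

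IFI44 and IFI44L are neighbours on chromosome 1 whose products have a GTPase-like domain. IFI44 was at 8.54, 8.82 and 8.65 with reagent, at 9.27, 9.24 and 8.75 with scrambled siRNA and at 8.81, 9.11 and 8.51 with the WT1 siRNA. Its scrambled array stood above reagent in 3 of 3 numbers, by 0.73, 0.42 and 0.11, although the groups overlapped, and the difference was 0.42 (SE 0.107, limma adjusted p = 0.12). Its dimmer second probe set gave 0.31 for the same comparison.

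IFI44L was at 6.96, 7.51 and 7.51 with reagent, at 7.72, 7.72 and 7.74 with scrambled siRNA and at 7.10, 7.59 and 7.13 with the WT1 siRNA. The 3 scrambled arrays were the highest of the 9 and lay within 0.02 of each other (SD 0.0109), whereas the SD was 0.318 with reagent and 0.277 with the WT1 siRNA. Scrambled minus reagent was 0.40 (SE 0.123, limma adjusted p = 0.198), and WT1 minus scrambled siRNA was −0.45 (SE 0.123, adjusted p = 0.0878). In both comparisons the scrambled arrays are the same ones. Without reagent array 1 the first difference was 0.26, and without number 1 it was 0.22 for IFI44L and 0.26 for IFI44. With scrambled siRNA against reagent, 2 members (IFI44L and ISG20) were higher without overlap of the arrays (2.97% of all genes) and 1 (MX1) was lower (2.72% of all genes).

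With the WT1 siRNA the members with the smallest p all stood below reagent. PARP12, an interferon-induced ADP-ribosyltransferase, was at 6.87, 7.30 and 7.21 with reagent, at 6.77, 6.92 and 7.05 with scrambled siRNA and at 6.36, 6.98 and 7.00 with the WT1 siRNA. It was below reagent in 3 of 3 numbers with either siRNA. The difference with the WT1 siRNA was −0.35 (SE 0.0894, limma adjusted p = 0.108).

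EIF2AK2 (PKR), the kinase that halts translation on meeting double-stranded RNA, was at 8.54, 8.95 and 8.95 with reagent, at 8.40, 8.97 and 8.81 with scrambled siRNA and at 8.38, 8.84 and 8.48 with the WT1 siRNA. The WT1 siRNA arrays were below reagent in 3 of 3 numbers, with a difference of −0.25 (limma adjusted p = 0.169). The other EIF2AK2 probe set gave −0.02. OAS3, a sister enzyme of OAS1, was at 6.92, 7.23 and 7.67 with reagent, at 7.12, 7.14 and 7.39 with scrambled siRNA and at 6.76, 7.05 and 7.22 with the WT1 siRNA, with a difference of −0.27 from reagent (adjusted p = 0.188). Without reagent array 3 the OAS3 difference was −0.16, and without WT1 siRNA array 3 that of EIF2AK2 was −0.15.

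Besides MX1, PSMB9, a subunit of the immunoproteasome, was lower than reagent on all 3 WT1 siRNA arrays without overlap (2 members, and 3.19% of all genes), and 0 members were higher without overlap (2.68% of all genes). Between the siRNAs, IFI44L, IFIT2 and ISG20 were lower with the WT1 siRNA without overlap (3 members, and 3.8% of all genes), and 0 were higher (3.16% of all genes). IRF1, a transcription factor that acts early in the response, had the smallest p there. It was at 7.03, 7.31 and 7.41 with reagent, at 7.13, 7.26 and 7.50 with scrambled siRNA and at 6.67, 7.08 and 7.33 with the WT1 siRNA, and WT1 minus scrambled siRNA was −0.27 (SE 0.0739, limma adjusted p = 0.0868). Within each number the WT1 siRNA array was the lowest of the 3, and without number 1 the difference was −0.18. Of the 38 members, 14 were below scrambled siRNA in 3 of 3 numbers (36.8%, and 20.1% of all genes) and 5 were above it (13.2%, and 16.4% of all genes).

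The one probe set of a member that passed against reagent was not the brightest of its gene. ISG20 had a second probe set, at 5.55, 5.69 and 5.99 with reagent, 5.95, 5.94 and 6.17 with scrambled siRNA and 5.97, 6.07 and 6.31 with the WT1 siRNA. It stood above reagent in 3 of 3 numbers with either siRNA, by 0.42, 0.38 and 0.31 with the WT1 siRNA and by 0.40, 0.25 and 0.17 with scrambled siRNA. It rose by 0.37 with the WT1 siRNA (SE 0.062, limma adjusted p = 0.0268) and by 0.32 with both siRNAs (adjusted p = 0.0396), while scrambled siRNA alone gave 0.27 (adjusted p = 0.0781).

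The first of these calls was lost on leaving out any 1 array other than WT1 siRNA 1 or scrambled siRNA 1 (adjusted p = 0.0508 to 0.161), and without the replicate block (adjusted p = 0.9999). The call for both siRNAs was kept on leaving out WT1 siRNA 1 (adjusted p = 0.0384) and lost on leaving out any other array (adjusted p = 0.053 to 0.301). Of the 12 further probe sets of 10 members this was the only one called in a treatment comparison. The brightest ISG20 probe set gave 0.11 with the WT1 siRNA (adjusted p = 0.443), so the 2 probe sets differed in which siRNA stood higher. Over the 10 genes with several probe sets, all probe sets had the same sign in 5 with the WT1 siRNA and in 8 with scrambled siRNA against reagent, and in 4 between the siRNAs, where those of CXCL11, EIF2AK2, IFIH1, ISG20, OAS1 and SP110 differed.

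Some members stood above reagent in 1 replicate number and below it in another. In number 1, TRIM22, a ubiquitin ligase that restricts retroviruses, stood 1.00 above reagent with the WT1 siRNA and IFIT1 stood 0.70 above it. In number 3 the same differences were −0.41 and −0.30. IFITM1 was above reagent in all 3 numbers, by 0.55, 0.17 and 0.07, and was the only member higher with the WT1 siRNA at an unadjusted p under 0.05 (0.27, SE 0.0895, limma adjusted p = 0.2). TRIM22 was at 6.42, 6.94 and 7.35 with reagent, at 6.79, 6.72 and 7.40 with scrambled siRNA and at 7.41, 6.86 and 6.94 with the WT1 siRNA, and its lines crossed between groups. Its fitted change was 0.17 (95% interval −0.31 to 0.65).

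IFIH1 (MDA5), a sensor of long double-stranded RNA, was at 5.64, 6.15 and 6.47 with reagent, at 5.47, 6.07 and 6.41 with scrambled siRNA and at 5.86, 5.69 and 5.97 with the WT1 siRNA. The WT1 siRNA array was above reagent in number 1 (by 0.22) and below it in numbers 2 and 3 (−0.47 and −0.49). Leaving out WT1 siRNA array 1 brought IFIH1 past the threshold, and it was then the 1 member called against reagent and, with ISG15, 1 of 2 called against scrambled siRNA. Within number 1, 4 of 38 members differed from reagent by more than 0.5 with the WT1 siRNA (2.03% of all genes). In numbers 2 and 3 there were 0 and 1 such members (1.41% and 2.68% of all genes).

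**Figure D3:**
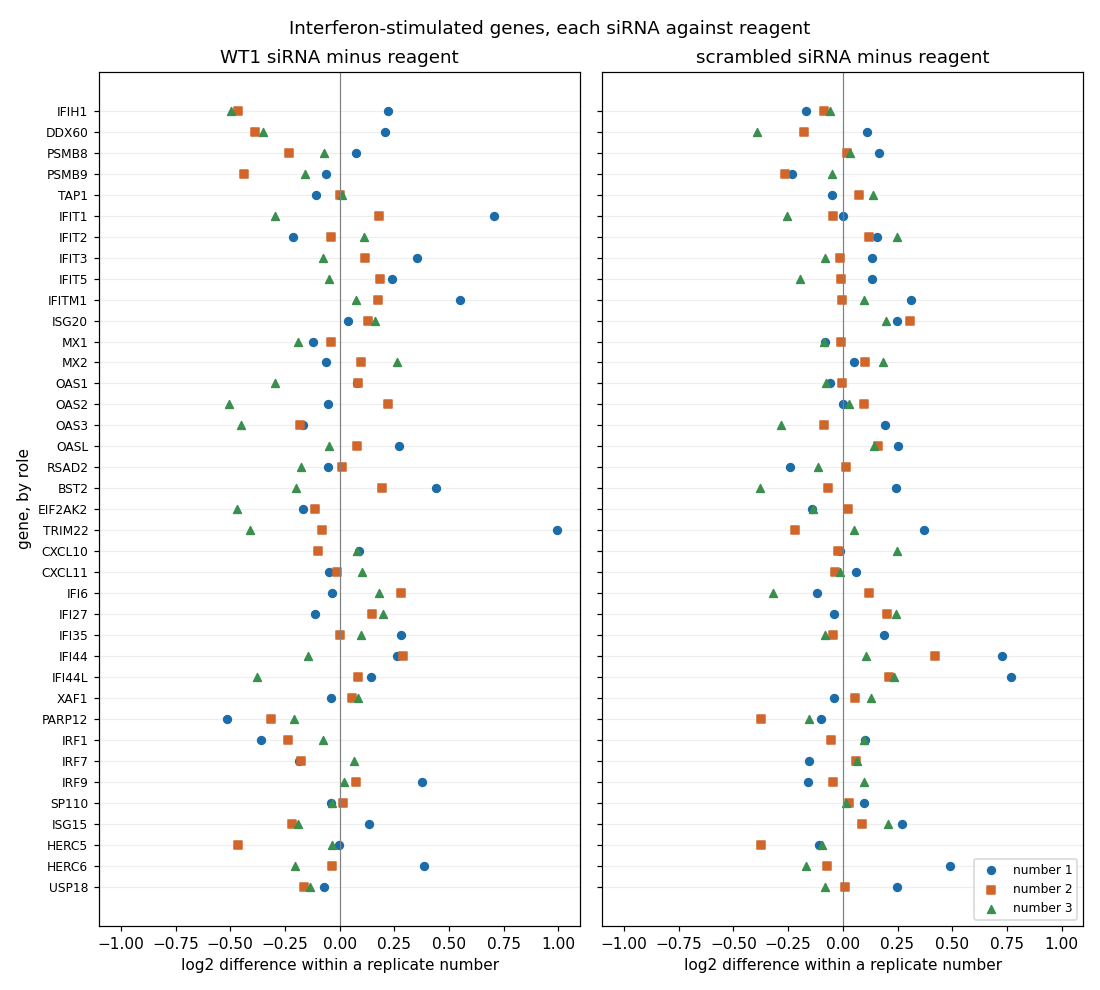
Difference from reagent within each replicate number (x axis, log2) for the 38 interferon-stimulated genes ordered by role, with the WT1 siRNA on the left and scrambled siRNA on the right. Points of number 1 (circles) reach 1.00 for TRIM22 with the WT1 siRNA and 0.77 for IFI44L with scrambled siRNA, while those of numbers 2 and 3 stay between −0.51 and 0.42.

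More members were called between replicate numbers than between treatments. Here the 3 arrays of a number, 1 per treatment, stand in as its replicates. The p-values therefore show that arrays of a number differ together, and do not measure how far numbers vary in general. Number 1 differed from the mean of numbers 2 and 3 in 13 of 38 members (34.2%), and 43.2% of all genes were called. Of these, 6 were higher in number 1 (18.5% of all genes) and 7 were lower (24.7% of all genes). Higher were BST2 (0.54, SE 0.0968, limma adjusted p = 0.00194), MX2, a relative of MX1 (0.35), PSMB8, an immunoproteasome subunit (0.25), IFITM1, which blocks viral entry (0.25), IFIT2, a sister of IFIT1 (0.21), and CXCL10 (0.21). Lower were IFIH1 (−0.46), PARP12 (−0.41), EIF2AK2 (−0.39), IRF1 (−0.37, SE 0.064, adjusted p = 0.00149), OAS3 (−0.35), HERC5, the ligase that attaches ISG15 (−0.30), and USP18, the protease that removes it (−0.22). MX2 was at 5.45, 5.02 and 4.95 with reagent, at 5.50, 5.12 and 5.14 with scrambled siRNA and at 5.38, 5.11 and 5.22 with the WT1 siRNA, and the 3 arrays of number 1 were the highest of the 9. BST2, EIF2AK2, IRF1, MX2, OAS3, PARP12 and PSMB8 passed under every alternative tried for this comparison.

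The other 6 calls did not. They were lost on leaving out reagent array 1 (CXCL10, IFIT2, IFIH1, HERC5, USP18), scrambled siRNA array 1 (IFITM1, IFIT2, IFIH1) or WT1 siRNA array 1 (CXCL10, IFITM1, USP18), and some also on leaving out WT1 siRNA array 2 (CXCL10, IFITM1), scrambled siRNA array 2 (CXCL10, IFITM1, IFIT2) or reagent array 3 (CXCL10), with adjusted p = 0.0566 to 0.159. Without WT1 siRNA array 1 the IFITM1 difference was 0.15 and that of IFIH1 −0.71. Quantile normalisation lost CXCL10 and IFITM1 (adjusted p = 0.146 and 0.079). All but PSMB8 of the 6 members higher in number 1 had a mean level at or under 6.96. That level is the 90th percentile of 21 genes of tissues far from glia, such as liver and heart. Of the members lower in number 1, IFIH1, PARP12, HERC5 and USP18 also lay at or under it, and EIF2AK2, IRF1 and OAS3 above it. Of those 21 genes 6 were also higher in number 1 and 0 were lower, where 18.5% and 24.7% of all genes were. The same held for 4 and 0 of 13 immune cell markers, a list that shares genes such as CD3E and CD79A with the first. Their part in the result was not tested.

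Number 2 differed from number 3 in 8 of 38 members (21.1%), and 23.2% of all genes were called. The same limit holds for these p-values, with 3 arrays standing in as replicates of each number. Of these, 6 were lower in number 2 (11% of all genes) and 2 were higher (12.2% of all genes). IFI6, a small membrane protein induced by interferon, was at 5.94 (reagent), 6.06 (scrambled siRNA) and 6.22 (WT1 siRNA) in number 2, at 7.00, 6.68 and 7.18 in number 3 and at 6.68, 6.56 and 6.65 in number 1. The number 2 arrays were the 3 lowest of the 9, whichever the treatment, and IFI6 was 1.84-fold lower in number 2 than in number 3 (−0.88, SE 0.0932, limma adjusted p = 0.000279). ISG15 (−0.63, adjusted p = 0.000568) and IFI35 (−0.60, adjusted p = 0.000469) were also lower in number 2. IFI35, which binds other interferon-induced proteins, was at 6.74 (reagent), 6.70 (scrambled siRNA) and 6.75 (WT1 siRNA) in number 2 and at 7.33, 7.25 and 7.42 in number 3, so those arrays did not overlap. These 3 differences are wider than any fitted change of a member in the 4 treatment comparisons, the widest of which was −0.45 (IFI44L between the siRNAs).

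IFITM1 (−0.37), OAS3 (−0.29) and PSMB9 (−0.27) were also lower, and IFI44 (0.42) and IFIT5, another IFIT gene (0.32), were higher. IFI6, IFI35 and ISG15 passed under all 15 alternatives. They were the only 3 called on leaving out WT1 siRNA array 2, scrambled siRNA array 2 or scrambled siRNA array 3. Leaving out WT1 siRNA array 3 or reagent array 3 gave 5, with TRIM22 among them in the first case. Over all genes, 2776 were called, and 1484 without WT1 siRNA array 2, 1632 without scrambled siRNA array 2, 1738 without scrambled siRNA array 3 and 1844 without reagent array 2.

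The control probe sets for ACTB at the 3′ and 5′ ends of the transcript, whose difference grows as RNA is shortened from its 5′ end, differed by 0.051 to 0.089 in number 1, 0.554 to 0.677 in number 2 and 0.260 to 0.505 in number 3. This measure moved with the replicate number. Within number 3 it was 0.260 with the WT1 siRNA, 0.460 with scrambled siRNA and 0.505 with reagent. The same difference for GAPDH was 0.106, 0.095 and 0.099 there, so it did not show that spread between treatments. For GAPDH it was −0.025 to −0.006 in number 1 and 0.157 to 0.184 in number 2. The part of either measure in the members' differences between numbers or between treatments was not tested.

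**Figure D4:**
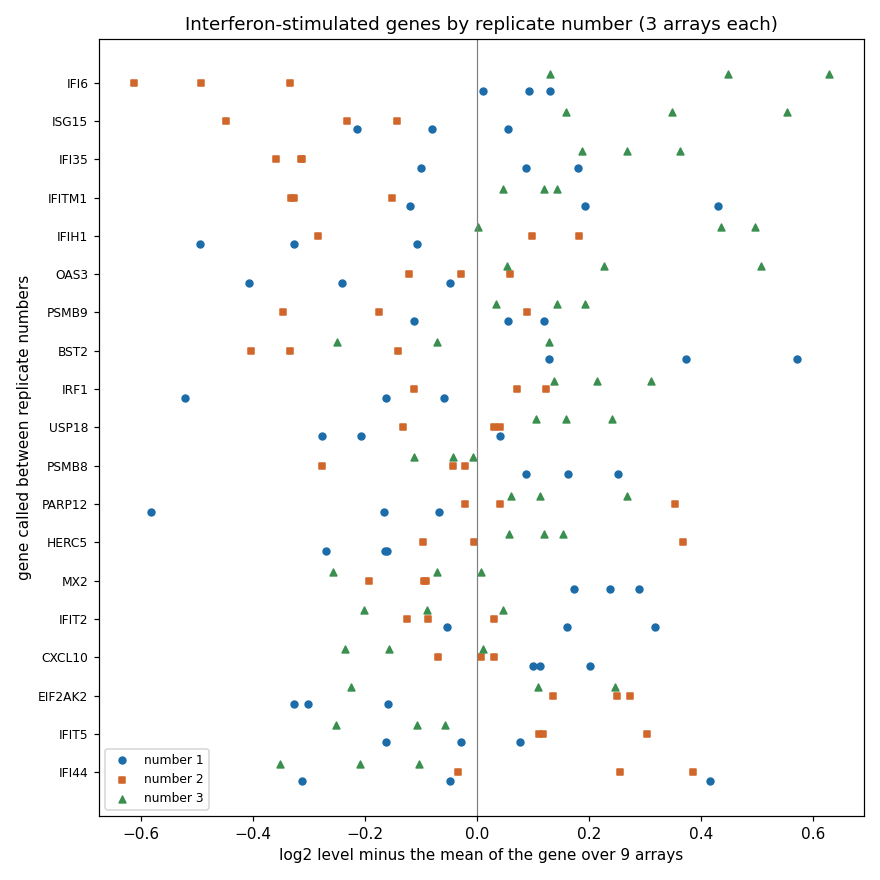
Log2 level of each array minus the mean of the gene over 9 arrays (x axis) for the 19 interferon-stimulated genes called between replicate numbers, with 3 arrays per number. For IFI6 all number 2 arrays (squares) lie below all others and all number 3 arrays (triangles) reach 0.13 or more.

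Over the 38 members the replicate number held a median of 45.6% of a gene's sum of squares (60.0% over all genes), the treatment group 20.9% (13.8% over all genes) and the remainder 20.9% (17.4% over all genes). The number held the greatest share in 22 members, or 57.9%, against 70.0% of all genes, and the remainder in 11. The treatment held it in 5, namely ISG20 (72.5%), MX1 (69.9%), IFI44L (51.0%), TAP1 (50.7%), which carries peptides for antigen presentation, and IFI44 (40.8%). TAP1 ranged only from 7.25 to 7.40 over the 9 arrays, so its large share is of a small spread. A share describes these 9 arrays and is not a test.

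Brightness set a limit on part of the list. The 21 genes of tissues far from glia had a median level of 4.92. At or under the 90th percentile of that list (6.96) lay 24 members, and 14 lay above it. That level is above the median of every array (6.45 to 6.53), so most probe sets lay under it as well. The share of all genes under it was not counted. Among the 24 were MX1, MX2, OAS1, OAS2, RSAD2, CXCL10, CXCL11, IRF7 and IFIT3. WT1, the target of the siRNA, also lay under 6.96 on every array (4.76 to 6.58). A probe set's brightness also depends on its probes, so this does not say which members were expressed. Names of probe sets that end in _s_at or _x_at mark those that can bind more than 1 transcript, as for IFI44, IFITM1, ISG15 and SP110.

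In the 4 treatment comparisons no gene of the lists upstream of the members was called, where 0.61% to 3.7% of all genes were. Of the interferon ligands 14 of 20 were measured and 0 were called against reagent or between siRNAs. Their array mean was 4.43 to 4.63, under the 5.13 to 5.36 of the genes of tissues far from glia. At such levels the lack of calls does not show that the ligands were unchanged. IFNB1, the interferon that cells other than immune cells release first, lay between 4.56 and 5.05 on all arrays and differed by 0.04 with both siRNAs (95% interval −0.15 to 0.22). The ligands with the smallest p for both siRNAs were IFNA17 (−0.14), IFNA10 (0.08) and IFNW1 (0.09), at adjusted p = 0.353 or more. Of the receptors and JAK-STAT genes 16 of 18 were measured and 0 were called in those comparisons, the smallest p being those of IFNGR1, a chain of the receptor for interferon gamma (−0.18, adjusted p = 0.21), PTPN2, a phosphatase that damps JAK signals (−0.16), and IFNGR2 (0.15). The RNA sensing genes were listed by 25 symbols, where DDX58 and RIGI name the same gene, as do TMEM173 and STING1. Of these genes 21 were measured and 0 were called in those comparisons. RIGI, the sensor of RNA ends, differed by −0.24 (adjusted p = 0.223), DHX9 by −0.13 and DICER1, which cuts double-stranded RNA, by 0.19. Between replicate numbers genes of all 3 lists were called. In number 1 against the others 3 ligands were higher and 0 lower, and 2 receptor and JAK-STAT genes were higher and 8 lower. Of the RNA sensing genes 5 were higher and 8 lower. Over all genes 18.5% were higher and 24.7% lower in that comparison.

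A few genes of related lists were called. Other interferon-stimulated genes were listed by 47 symbols, where WARS and WARS1 name the same gene, and 36 were measured. Of these, 2 rose with WT1 against scrambled siRNA, where 1.39% of all genes rose. They were IRF2, a repressor of interferon genes (0.42, SE 0.0864, limma adjusted p = 0.0322), and SP100, a nuclear body protein (0.28, adjusted p = 0.0425). Neither passed against reagent, where IRF2 stood at 0.20 and SP100 at 0.20 (adjusted p = 0.318 and 0.17). Of 18 antigen presentation genes 15 were measured. PDIA3, a disulfide isomerase that helps load MHC class I, rose with the WT1 siRNA against reagent (0.49, SE 0.0722, limma adjusted p = 0.0178) and against scrambled siRNA (0.35, adjusted p = 0.0344). In the treatment comparisons 0 others of that list were called. Over all genes 0.376% rose in the first of the 2 comparisons and 1.39% in the second.

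NF-kB targets were listed by 25 symbols, where CXCL8 and IL8 name the same gene, and 22 were measured. Of these, CXCL8 (interleukin 8), which draws neutrophils, fell with scrambled siRNA against reagent (−0.71, SE 0.12, limma adjusted p = 0.0289). It rose with WT1 against scrambled siRNA (0.58, adjusted p = 0.0347). Its levels were 7.67, 8.84 and 7.21 with reagent, 6.71, 8.18 and 6.71 with scrambled siRNA and 7.24, 9.07 and 7.03 with the WT1 siRNA. In each number the scrambled array was the lowest, and both comparisons use those arrays. TNFAIP2, a gene induced by tumour necrosis factor, fell with WT1 against scrambled siRNA (−0.32, adjusted p = 0.0263). Over all genes 0.568% fell with scrambled siRNA against reagent. Between the siRNAs 1.39% rose and 2.32% fell.

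Of the 12 glial markers, 3 were called in at least 1 treatment comparison. With scrambled siRNA against reagent 2 rose (0.644% of all genes). Between the siRNAs 1 rose (1.39% of all genes) and 1 fell (2.32% of all genes). With the WT1 siRNA or both siRNAs against reagent 0 were called (1.4% and 0.61% of all genes). The widest change on this list, −1.11 with scrambled siRNA against reagent, was not called. SLC1A3, a glutamate transporter of astrocytes, rose with scrambled siRNA against reagent (0.49, limma adjusted p = 0.00641) and fell with WT1 against scrambled siRNA (−0.70, adjusted p = 0.000859). TNC, a matrix protein, rose with scrambled siRNA against reagent (0.31, adjusted p = 0.0478). SOX2, a transcription factor of neural stem cells, rose with WT1 against scrambled siRNA (0.75, adjusted p = 0.00282). These comparisons share the scrambled arrays.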

How the data were processed

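Transcripts were measured on 9 Affymetrix arrays of U251 cells in 3 groups of 3. Per the submitters' processing notes the authors used RMA, and the deposited values are log2 levels per probe set. The sources used here name no software version, chip definition or genome build. The table had 22277 probe sets and 0 missing values. Leaving out 62 control probe sets left 22215, of which 19064 had 1 gene symbol, 1043 several and 2108 none. The platform annotation can be old, and 19052 probe sets looked up by gene ID in RefSeq kept their symbol.

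limma 3.58.1 in R 4.3.3 was fitted to all probe sets and all 9 arrays with a mean per group and a fixed term for each replicate number. The pairing comes from the numbers in the sample titles, and 9 of 9 arrays deviated most like an array of their own number. Tests were two-sided, with Benjamini-Hochberg adjustment over all 22215 probe sets and a threshold of 0.05. The procedure was tested on simulated data. Over all genes 70.3% of the sum of squares lay between numbers and 16.6% between groups.

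The members, gene lists and tests were chosen with earlier results of these data known. Array values were printed for IFIT1, IFIT3, ISG15, MX1, OAS1, IFI44L, IRF1, CXCL10, BST2 and the 3 members with the smallest p in each comparison. Others were named where called or among the largest changes, and TRIM22, IFIH1, IFI6 and the second ISG20 probe set were described after their values were seen. From other lists, called genes or up to 3 with the smallest p were named. A result on a second promoter motif is not reported here. Figures were drawn with matplotlib 3.10.9.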

Additional observations from a re-analysis of the deposited data

How the results depend on the processing

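Without the replicate block, limma called 0 members in each of the 4 treatment comparisons, as in the blocked fit, with 0, 2, 1 and 1 members at an unadjusted p under 0.05 (WT1 siRNA against reagent, scrambled siRNA against reagent, WT1 against scrambled siRNA, both against reagent). Over all genes that fit called 0, 1, 4 and 0, so the pairing set how many genes passed. The number as a random effect (correlation 0.634) also called 0 members in each.

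The members called ranged from 0 to 1 with the WT1 siRNA against reagent on leaving out arrays or numbers (1, IFIH1, without WT1 siRNA array 1 or without number 1). They ranged from 0 to 1 with scrambled siRNA against reagent (1, IFI44, without reagent array 3), from 0 to 2 with WT1 against scrambled siRNA and from 0 to 1 for both siRNAs (1, IFIH1, without WT1 siRNA array 1). With a trended and robust variance prior 1 member was called with scrambled siRNA against reagent (IFI44, adjusted p = 0.0465) and 1 with WT1 against scrambled siRNA (IFI44L, adjusted p = 0.0441). With the mean of all probe sets of a gene 1 was called for both siRNAs (ISG20, adjusted p = 0.0459). Between numbers 2 and 3 the count ranged from 3 to 12.

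The median change of the members ranged, on leaving out arrays or numbers, from −0.0568 to 0.0317 with the WT1 siRNA and from −0.0302 to 0.0544 with scrambled siRNA against reagent, from −0.0773 to −0.0300 between the siRNAs and from −0.0509 to −0.0101 between numbers 2 and 3. Between the siRNAs it was −0.0674 with arrays centred on their medians, −0.067 after quantile normalisation and −0.0349 with the mean of probe sets. That mean gave −0.0256 for number 1 against the others. Between numbers 2 and 3 it was 0.0124 with arrays centred and −0.0562 without the dimmest 25% of probe sets. The sign of the median against reagent therefore depended on which arrays or numbers were kept. The cause was not tested.

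Every member's 95% interval stayed below a 2-fold rise in the 4 treatment comparisons under each alternative (32 of 32 members where the dimmest 25% was left out). The counts called over all genes varied widely, from 0 to 366, 1 to 318, 2 to 677 and 0 to 230 in the order above. They were 3525 to 5693 for number 1 against the others and 1484 to 3095 between numbers 2 and 3. Dim probe sets and 3 arrays per group limit what could be detected.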
